A study of Sus scrofa with 8 samples.

Results

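CTCF sites that lay away from gene starts and inside H3K27ac peaks were examined in pig embryonic fibroblasts (PEFs). A site was counted when a CTCF peak of replicate 1 on chromosomes 1 to 18 or X overlapped, by at least 1 bp, a CTCF peak of replicate 2 and an H3K27ac peak of both replicates, and lay more than 2.5 kb from every gene transcription start site (TSS) in the RefSeq annotation of the Sscrofa11.1 assembly. The TSS limit applied to the CTCF peak only, so the H3K27ac peak at a site could reach a TSS. The rule found 6291 sites among the 40289 CTCF peaks of replicate 1. There were 32329 CTCF peaks shared by both replicates and distal to TSSs, so that the sites made up 19.5% of them. The comparison set was the 24198 shared distal CTCF peaks with no H3K27ac peak in either replicate, and the remaining 1840 had H3K27ac in 1 of 2 replicates.

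The PEFs were untreated cells taken from fetuses of 35 days of gestation of Large White pigs. CTCF, H3K27ac and H3K4me3 were each profiled by ChIP-seq in 2 replicates, which makes 6 libraries and no treatment contrast. The labels do not state whether replicates came from separate cultures, and the cells were a primary population rather than a clone. H3K27ac and H3K4me3 peaks of both replicates lay within 1 kb of the TSS of 13 of 13 fibroblast genes checked. None of 10 genes that define other cell types had H3K27ac there, while 5 of them (EPCAM, CDH1, SOX2, NEUROD1 and MYOD1) had H3K4me3.

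CTCF is a zinc finger protein that binds a long, non-palindromic DNA motif. It halts cohesin during loop extrusion in a manner that depends on the direction of the motif, and it is found at loop anchors, domain boundaries and insulators. Acetylation of histone H3 at lysine 27 (H3K27ac) marks active enhancers and promoters, whereas trimethylation of lysine 4 (H3K4me3) is strongest on nucleosomes at active promoters. A distal CTCF site inside an H3K27ac peak thus combines an architectural protein with a mark of active regulatory DNA.

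The sequences below show the best match to the CTCF motif near the summit of such sites, and binding to these bases was not measured. The 19-bp motif was learned from CTCF peaks close to TSSs, none of which belongs to the sites or to the comparison set. Capitals mark positions with at least 1 bit of information.
CTCF motif consensus: tggCCaccAGggGGCgcta
The first set shows the motif, in capitals with 12 bp on each side, at 5 of the 6 sites with the highest mean CTCF fold enrichment, on the Sscrofa11.1 assembly and along the strand of the motif.
Intergenic site near LOC110259770, chr2:87937364-87937406, plus strand: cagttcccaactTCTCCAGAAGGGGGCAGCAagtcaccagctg
SLC4A7 intron, chr13:14024158-14024200, minus strand: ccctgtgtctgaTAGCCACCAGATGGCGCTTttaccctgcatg
Intergenic site near SHCBP1L, chr9:124225826-124225868, plus strand: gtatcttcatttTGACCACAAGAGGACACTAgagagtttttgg
Intergenic site near ARF6, chr1:179686109-179686151, plus strand: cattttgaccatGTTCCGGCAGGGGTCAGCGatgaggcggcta
Intergenic site near LOC110259247, chr2:9629170-9629212, minus strand: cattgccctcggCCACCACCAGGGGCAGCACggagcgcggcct
The second set shows the motif at 3 of the 6 sites with the highest mean H3K27ac fold enrichment.
Intergenic site near LOC106508501, chr1:269720300-269720342, minus strand: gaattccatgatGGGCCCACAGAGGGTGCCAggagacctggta
REV3L intron, chr1:77396518-77396560, minus strand: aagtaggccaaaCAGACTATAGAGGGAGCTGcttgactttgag
Intergenic site near CCDC9, chr6:53055687-53055729, minus strand: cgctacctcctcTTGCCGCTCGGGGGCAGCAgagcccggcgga
The third set shows 3 sites where the CTCF motif and the word TGANTCA, bound by AP-1 (dimers of FOS and JUN proteins, prominent at fibroblast enhancers), lay close together, both in capitals. They were chosen for their H3K27ac enrichment after the values were seen.
Intron of LOC110257252 near SPARC, chr16:71359942-71360029, minus strand: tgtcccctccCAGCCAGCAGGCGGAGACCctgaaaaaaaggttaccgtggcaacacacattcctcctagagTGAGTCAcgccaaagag
Intergenic site near NGFR, chr12:25672079-25672168, plus strand: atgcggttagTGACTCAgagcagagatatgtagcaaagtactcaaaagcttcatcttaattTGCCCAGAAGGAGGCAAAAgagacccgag
BLCAP intron, chr17:40630803-40630867, plus strand: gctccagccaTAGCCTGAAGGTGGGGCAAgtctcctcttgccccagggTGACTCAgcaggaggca

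Fold enrichment is the ratio of the ChIP signal to the control at a peak, as the authors' peak caller gave it. The sites were chosen by the presence of CTCF and H3K27ac peaks in both replicates and by TSS distance, so the enrichments of these 2 factors are given as a description. The site with the highest mean CTCF enrichment, near LOC110259770 on chromosome 2, had a CTCF fold enrichment of 75.9 in replicate 1 and 120 in replicate 2. Its H3K27ac peak reached 10.8 and 10.5, and no H3K4me3 peak overlapped it. The site near ARF6, a small GTPase gene of membrane traffic, had CTCF enrichments of 88.9 and 91.6 and H3K27ac enrichments of 24.4 and 28.1. Among the 6 strongest CTCF sites, H3K27ac was lower than 11 at 5 and above 24 at the site near ARF6 alone. Over all sites the median H3K27ac enrichment was 7.20 in replicate 1 and 7.62 in replicate 2, so most sites also lay below 11. The SLC4A7 site, in an intron of a sodium bicarbonate cotransporter gene, had CTCF enrichments of 83.0 and 107, but H3K27ac enrichments of 2.89 and 6.75.

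Of the 6 sites with the highest H3K27ac, 4 had CTCF enrichments below the medians of all sites in both replicates. The share of all sites below both medians was not computed, so this count is only a description. The sites ranked 5 and 6 lay in the same H3K27ac peak, with enrichments of 53.2 and 54.8. The site near LOC106508501 lay in an H3K27ac peak of 14773 bp with enrichments of 54.9 and 67.1, and its CTCF enrichments were 5.997 and 4.70. The REV3L site, in an intron of the gene for the catalytic subunit of DNA polymerase zeta, had H3K27ac enrichments of 60.4 and 56.7 and CTCF enrichments of 14.6 and 17.6. The site near CCDC9 was high on both, with 50.4 and 65.6 for H3K27ac and 32.1 and 44.3 for CTCF. CTCF summits at the LOC106508501 and REV3L sites lay 9400 bp and 5353 bp from the H3K27ac summit of replicate 1, so that the acetylation maximum was elsewhere in these broad peaks.

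Over all sites, the median CTCF fold enrichment was 21.2 in replicate 1 and 26.3 in replicate 2. In the comparison set the medians were 20.7 and 22.9. The ratio of the medians was 1.03 and 1.15, or 1.09 ± 0.0862 (SD, n = 2), and it turned to 0.942 when at least 50% of the CTCF peak had to be covered by H3K27ac, so no direction is given for it. CTCF peak width was close in the sites and the comparison set as well, with medians of 680 and 689 bp in replicate 1 and of 819 and 802 bp in replicate 2. With 2 libraries per factor, an exact two-sided permutation test that pairs libraries cannot go below p = 0.5, and no p-value was computed. The 95% intervals given for shares and differences count each site once and do not cover variation between cell cultures. The read depth behind single peaks is unknown from the lists.

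The rule had a threshold in TSS distance and in overlap. The sites just inside the first lay 2501 bp from the TSS of LOC102159687 and 2525 bp from those of SIPA1L1 and TOMM22, and the CTCF peaks just outside lay 2500 bp from SAFB and 2491 bp from GABPB2 and CCDC184. The H3K27ac enrichments were 7.95 and 5.89 at the LOC102159687 site and 31.4 and 38.6 at the excluded SAFB peak. Overlap with H3K27ac was under 50 bp in either replicate at 127 sites (2.02%), with a minimum of 1 bp.

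Where CTCF sat relative to acetylation was then measured. The CTCF summit was inside the H3K27ac peak at 77.2% of sites in replicate 1 and 77.3% in replicate 2. The 2 summits rarely coincided, as the median distance between the CTCF summit and the H3K27ac summit was 435 bp in replicate 1 and 424 bp in replicate 2. The distance was under 150 bp at 7.61% and 7.96% of sites, and between 150 and 500 bp at 48.8% and 49.0%. The whole CTCF peak was within the H3K27ac peak at 56.4% and 56.7% of sites.

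Because the CTCF motif has a direction, the position of H3K27ac was also read along it. A motif with p under 1e-04 was present within 100 bp of the summit at 5394 sites, and downstream denotes the side after the last base of the consensus printed above. From the motif centre, the H3K27ac peak extended a median of 668.5 bp upstream and 943.5 bp downstream in replicate 1, and 670 bp and 947 bp in replicate 2. The median difference at a site was 377.5 bp in the first and 360 bp in the second library, with a mean of 369 ± 12.4 (SD, n = 2). H3K27ac reached farther downstream at 60.9% of sites in replicate 1 (95% Wilson interval 59.6 to 62.2) and 60.6% in replicate 2 (59.3 to 61.9). The peak did not have to cover the motif, and the motif centre was covered at 74.8% and 75.2% of these sites. Where the CTCF summit was inside the H3K27ac peak, the median difference was smaller, at 220 and 222.5 bp. At those sites H3K27ac reached farther downstream in 59.1% and 58.9% of cases.

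The H3K27ac summits formed a maximum on each side of the motif and were sparse over it. In replicate 1, there were 181 summits within 100 bp of the motif centre, 906 at 100 to 400 bp upstream and 1383 at 100 to 400 bp downstream. Replicate 2 gave 169, 944 and 1453. In the fullest 50-bp bins of replicate 1 there were 349 summits at 300 to 350 bp downstream and 173 at 250 to 300 bp upstream. The summit was downstream at 59.8% and 60.01% of sites.

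**Figure D1:**
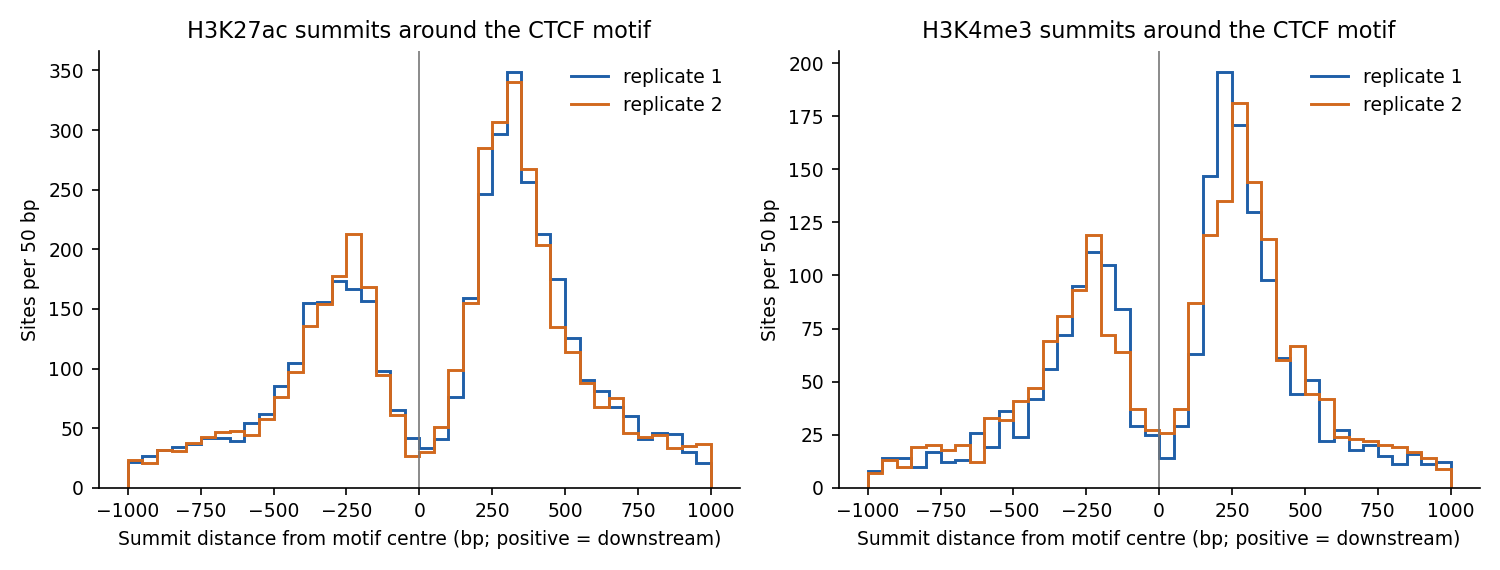
Number of sites per 50 bp (vertical axis) by the distance of the H3K27ac summit (left) or the H3K4me3 summit (right) from the CTCF motif centre in bp (horizontal axis), with a line for each replicate. In each library both sides have a maximum 200 to 350 bp from the motif, and the one downstream is higher.

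H3K4me3, which the rule did not use, showed the same direction. At the 2310 sites with a motif and an H3K4me3 peak in replicate 1, the H3K4me3 summit was downstream at 58.1% (56.1 to 60.1), and at the 2467 sites of replicate 2 it was downstream at 58.5% (56.6 to 60.5). The mean was 58.3% ± 0.279 (SD, n = 2). Within 100 to 400 bp there were 805 H3K4me3 summits downstream and 523 upstream in replicate 1, and 783 and 498 in replicate 2. The direction was not particular to the sites. In the comparison set, H3K4me3 covered 1.72% at 500 bp upstream of the motif and 2.61% at 500 bp downstream in replicate 1. Replicate 2 gave 2.18% and 3.34%.

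The direction did not follow the strand of the chromosome. H3K27ac of replicate 1 was longer downstream at 60.6% of the 2772 sites with a plus-strand motif and at 61.3% of the 2622 with a minus-strand motif. It was longer downstream at 62.9% of intergenic and 60.2% of intronic sites, and at 61.2% of the 4917 sites that were alone in their H3K27ac peak. The CTCF peaks themselves were nearly symmetric about the motif, as in replicate 1 they extended 346 bp upstream and 341 bp downstream at the sites. The motif pointed towards the nearest gene TSS at 48.8% of sites (47.4 to 50.1), compared with 47.5% of the comparison set (46.9 to 48.2).

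The direction was related to CTCF enrichment. When all shared distal CTCF peaks were ranked by CTCF fold enrichment of replicate 1 and cut into 5 equal groups, H3K27ac of replicate 1 was longer downstream at 50.3% (46.9 to 53.6) of sites in the lowest group. In the next groups it was longer at 55.7%, 61.8% and 66.4%, and in the highest at 66.1% (63.2 to 68.9). H3K27ac of replicate 2 gave 51.3% in the lowest and 66.2% (63.3 to 69.0) in the highest group. The intervals of the lowest and highest groups did not overlap in either replicate, but they count sites. Both replicates were read at the same sites, motifs and CTCF groups. The median motif score rose with these groups as well, from 12.9 bits in the lowest to 17.9 bits in the highest, and its part in the result was not tested. Requiring H3K27ac to cover at least 50% of the CTCF peak lowered the median difference between the sides from 369 to 198.5 bp, in the same direction.

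In the comparison set, which has no H3K27ac peak at the CTCF peak by definition, the nearest H3K27ac peak lay downstream of the motif in 49.4% of cases in replicate 1 and 49.2% in replicate 2. Where it lay within 5 kb, it was downstream at 52.6% (51.1 to 54.1) of 4430 peaks and at 52.7% (51.2 to 54.1) of 4766. The downstream share there was smaller than at the sites, but the measures differ. The former is a distance to a neighbouring peak and the latter the extent of an overlapping one. Coverage was measured alike in both sets. In the comparison set, H3K27ac of replicate 1 covered 0.282% at 500 bp upstream of the motif and 0.540% at 500 bp downstream. Replicate 2 gave 0.434% and 0.646%. At 3000 bp the shares were 3.50% and 3.69% in replicate 1. Close to the motif, a downstream excess was thus also present in the comparison set.

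**Figure D2:**
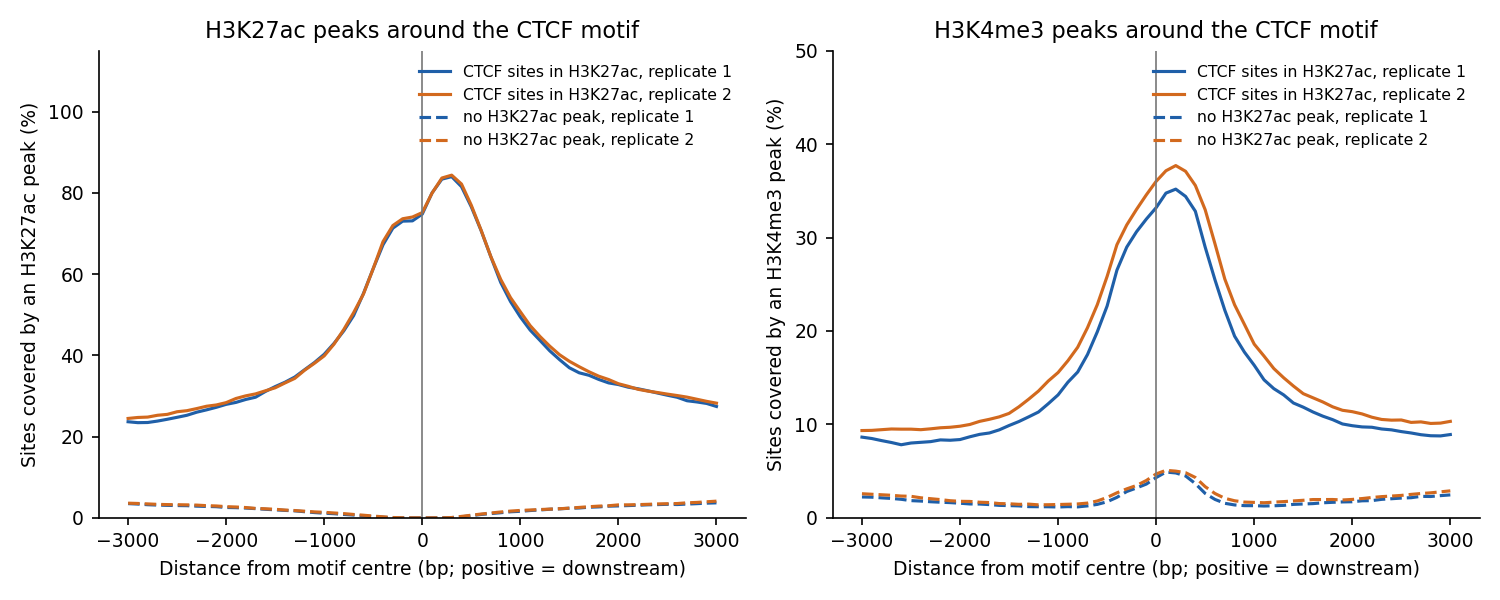
Share of sites in percent covered by an H3K27ac peak (left) or an H3K4me3 peak (right) by distance in bp from the CTCF motif centre, for sites in H3K27ac (solid) and for the comparison set with no H3K27ac peak (dashed), with a line for each replicate. Among the sites, H3K27ac of replicate 1 covered 61.4% at 500 bp upstream and 76.6% at 500 bp downstream, and H3K4me3 of replicate 1 covered 22.7% and 29.0%. In the comparison set these were 0.282% and 0.540% for H3K27ac, and 1.72% and 2.61% for H3K4me3.

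H3K4me3 overlap was the measure by which the sites and the comparison set differed most among the overlap, motif, word and location shares. An H3K4me3 peak overlapped the CTCF peak at 2698 of 6291 sites (42.9%, 41.7 to 44.1) in replicate 1 and at 2907 (46.2%, 45.0 to 47.4) in replicate 2. Over all shared distal CTCF peaks the shares were 13.7% and 14.6%. In the comparison set they were 5.76% (5.47 to 6.06) and 5.99% (5.70 to 6.30), and the CTCF peaks with H3K27ac in 1 of 2 replicates were intermediate at 18.3% and 20.1%. H3K4me3 of both replicates overlapped 39.5% of sites, 4.78% of the comparison set and 12.2% of all shared distal CTCF peaks. The difference between the sites and the comparison set was 37.1 percentage points for H3K4me3 replicate 1 and 40.2 for replicate 2, with a mean of 38.7 ± 2.19 (SD, n = 2).

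This difference was present in each CTCF group, being 41.8 points (mean of both H3K4me3 replicates) in the lowest and 35.2 in the highest group of CTCF enrichment. It was 39.1 for intergenic and 36.5 for intronic peaks. Some sites lay near alternative starts, as 474 (7.53%) were within 2.5 kb of the TSS of an annotated transcript that is not the gene's outermost start, against 1.85% of the comparison set. H3K4me3 overlapped 81.9% and 84.4% of these 474 sites. Without them, the difference was 34.2 and 37.4 points, or 35.8 ± 2.25 (SD, n = 2). Sites whose H3K27ac or H3K4me3 peak itself reached a gene TSS were not counted or left out.

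H3K4me3 at the sites was lower than at gene starts. Where it overlapped a site, its median fold enrichment was 12.2 in replicate 1 and 8.42 in replicate 2. In the comparison set it was 7.5 and 6.02, and at H3K4me3 peaks within 1 kb of a gene TSS it was 49.4 and 23.9. Single sites overlapped H3K4me3 peaks with promoter-like values. These were 74.0 and 32.7 at the BLCAP intron site, 2638 bp from the BLCAP TSS. At the site near CCDC9, 8251 bp from its TSS, they were 59.3 and 21.6. Such values belong to the whole overlapping peak, and whether these peaks reached a TSS was not tested.

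A second comparison started from acetylation instead of CTCF. Here the H3K27ac peak itself lay more than 2.5 kb from every gene TSS. Of 50857 such distal peaks of replicate 1 shared with replicate 2, 5570 (10.95%) overlapped a CTCF site of the set and 43739 overlapped no CTCF peak. H3K4me3 overlapped 48.5% and 52.5% of those with a CTCF site, and 24.9% and 32.7% of those without CTCF. Peaks with a CTCF site were also wider (median 1635.5 bp against 1280 bp) and higher in H3K27ac enrichment (6.51 and 6.93 against 4.69 and 5.0), so the shares were compared within groups of peak width. Among the narrowest peaks (379 to 704 bp), H3K4me3 overlapped 37.7% (34.5 to 40.9) and 37.0% (33.9 to 40.2) of those with a CTCF site, and 11.7% (11.06 to 12.4) and 14.7% (13.9 to 15.4) of those without. Among the widest (2536 bp or more) the shares were 62.6% and 69.4% against 48.7% and 61.9%. The share was higher with a CTCF site in 5 of 5 width groups and in 5 of 5 groups of H3K27ac enrichment in both H3K4me3 replicates. The mean difference over width groups was 20.3 points in replicate 1 and 15.6 in replicate 2, and over enrichment groups 14.5 and 10.04. Whether a CTCF site was found depended on width too, being 8.59% of the narrowest and 17.5% of the widest peaks. Per Mb of H3K27ac peak the order was the opposite, with 160 peaks holding a CTCF site in the narrowest and 38.0 in the widest group.

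**Figure D3:**
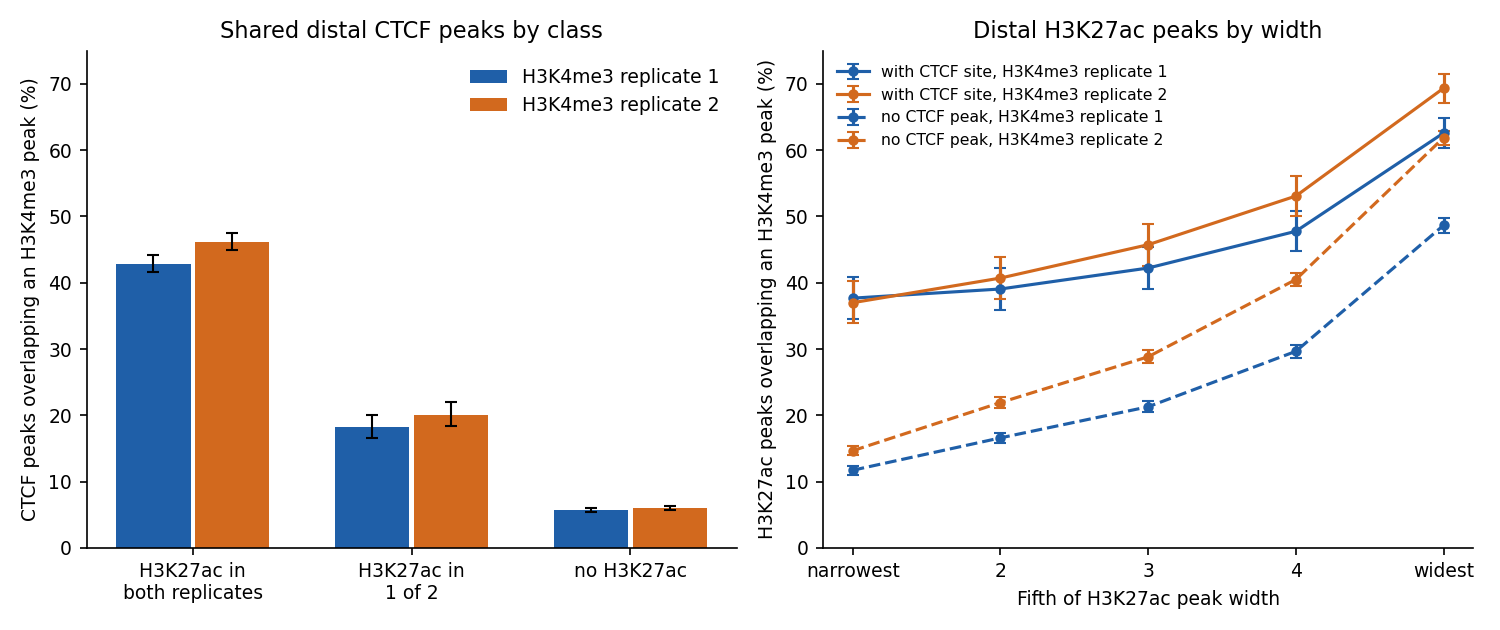
Left, share in percent of shared distal CTCF peaks that overlap an H3K4me3 peak, by H3K27ac class. Right, share in percent of distal H3K27ac peaks that overlap an H3K4me3 peak, with a CTCF site (solid) or with no CTCF peak (dashed), in 5 equal groups of H3K27ac peak width. Colours are H3K4me3 replicates and bars are 95% Wilson intervals. In each width group the peaks with a CTCF site lie above those without CTCF of the same replicate.

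The DNA under the sites was examined next. A CTCF motif (p under 1e-04) was found at 85.7% of sites (84.9 to 86.6), against 88.8% of all shared distal CTCF peaks and 89.5% of the comparison set (89.1 to 89.9). The difference was -3.80 points (95% Newcombe interval -4.76 to -2.87), and -6.63 when CTCF replicate 1 was left out. In windows of the same size 1 kb from the summit, a motif was found at 10.1% for the sites and 7.34% for the comparison set. The difference in motif share lay in weaker CTCF peaks. It was -9.97 points (-12.9 to -7.15) in the lowest and -8.19 (-10.9 to -5.65) in the second group of CTCF enrichment. In the other 3 groups it was 0.140, -0.770 and -0.538, with intervals that included 0. In the upper 3 groups between 93.7% and 96.8% of sites had a motif.

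**Figure D4:**
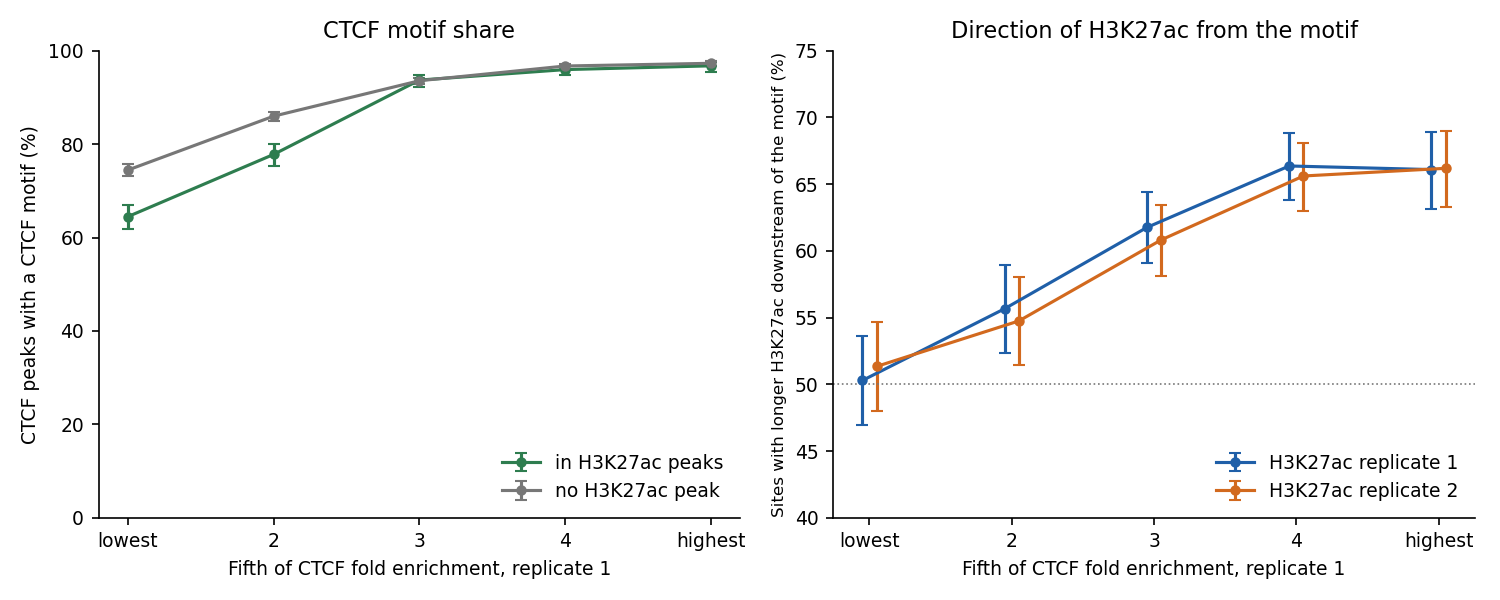
Left, share in percent of CTCF peaks with a CTCF motif within 100 bp of the summit, for sites in H3K27ac peaks and for the comparison set. Right, share in percent of sites whose H3K27ac peak reaches farther downstream than upstream of the motif, for both H3K27ac replicates, on an axis that starts at 40 and with 50 dotted. Both are plotted by 5 equal groups of CTCF fold enrichment of replicate 1, with 95% Wilson intervals. The sites lie below the comparison set in the 2 lowest groups on the left, and on the right the share rises from 50.3% to 66.1% in replicate 1.

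The 897 sites with no motif differed from the rest in several measures. Their median CTCF enrichments were 8.50 and 9.88, compared with 23.6 and 28.9 at sites with a motif. Their H3K27ac enrichments, at 8.37 and 8.73, exceeded the 7.03 and 7.43 of sites with a motif. Their CTCF summit was inside the H3K27ac peak in 89.3% and 90.0% of cases, against 75.1% and 75.2%. The AP-1 word TGANTCA lay within 150 bp of the summit at 21.9% of them (19.3 to 24.7), at 11.5% of sites with a motif (10.7 to 12.4), and at 12.3% of comparison peaks with no motif (11.103 to 13.7). The word lay there at 8.62% of comparison peaks with a motif. Sites with no motif thus had weaker CTCF enrichment, and more often had their summit inside the H3K27ac peak and the AP-1 word nearby. Their H3K27ac peaks were also wider, with medians of 2363 and 2337 bp against 1805 and 1781 bp, and the part of width was not tested. Weaker CTCF was not particular to the sites. Comparison peaks had medians of 9.14 and 9.91 without a motif, and 22.6 and 24.8 with one. H3K4me3 overlapped the sites with no motif about as often as those with one, at 43.3% and 49.1% against 42.8% and 45.7%.

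Among 10 short words of transcription factors searched on both strands within 150 bp of the summit, AP-1 and SP/KLF were higher at the sites. The AP-1 word was present at 12.96% of sites, 9.86% of all shared distal CTCF peaks and 9.01% of the comparison set, a difference of 3.95 points (3.06 to 4.87). This AP-1 difference lay mostly in weaker CTCF peaks. In the lowest group of CTCF enrichment the word was present at 19.0045% of sites and 10.98% of the comparison set. The next group gave 15.5% and 9.11%. The upper groups, in rising order, gave 9.93% and 8.71%, 10.6% and 8.13%, and 9.77% and 8.08%. The SP/KLF word GGGCGG, the GC box of many promoters, was present at 19.2%, 11.6% and 9.45%, a difference of 9.78 points (8.76 to 10.8). The ETS word CCGGAAG was present at 2.80%, 1.80% and 1.54%. The E-box CAGCTG and the TEAD word GGAATG, bound by the partners of YAP and TAZ, were also somewhat higher, by 2.08 (1.04 to 3.14) and 1.02 (0.0182 to 2.06) points from backgrounds of 16.3% and 15.6%.

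Other words were lower at the sites. The CCAAT box was present at 29.3% of sites and 34.3% of the comparison set (33.1% over all), and the word AGATAA of GATA factors at 13.03% and 17.0% (16% over all). The SOX word ACAATG was present at 10.8% and 13.9% (13.1% over all) and the RUNX word TGTGGT at 19.8% and 21.1% (20.8% over all). The NFI word TTGGCA, at 15.4% and 16.1% (16% over all), gave an interval of the difference from -1.71 to 0.303. These words differ in base composition, so the differences were also averaged over 5 equal groups of GC content. The AP-1 difference was then 4.82 points and was positive in 5 of 5 groups. The SP/KLF difference fell to 3.60, with a range over groups from 0.0136 to 13.4, and that of the E-box to 0.0173. For GATA it was -1.06, for CCAAT -2.40 and for SOX -1.34, each negative in 4 of 5 groups. For RUNX it shrank to -0.288 and was positive in 2 of 5 groups. The AP-1 difference was 0.990 points within 50 bp of the summit and 5.46 within 300 bp. With words that overlap the CTCF motif left out, the word was present at 12.7% of sites and 8.83% of the comparison set.

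**Figure D5:**
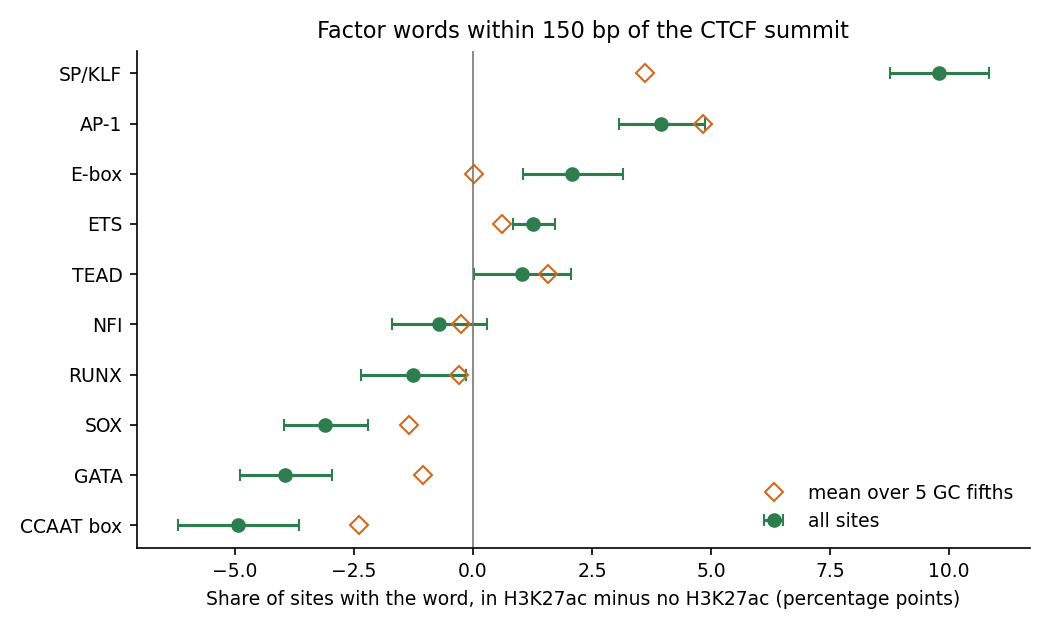
Share of sites with a factor's word within 150 bp of the CTCF summit minus that of the comparison set, in percentage points, with 95% Newcombe intervals (filled) and as the mean over 5 GC groups (open). AP-1 is the highest after averaging over GC, at 4.82 points, and SP/KLF moves from 9.78 to 3.60.

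At 619 sites a CTCF motif and an AP-1 word were both present, with a median distance between their centres of 73 bp, and at 211 of them the distance was 16 to 60 bp. The 3 sequences printed above belong to these. At the site near SPARC, a gene for a secreted matrix protein of fibroblasts, the centres were 55 bp apart, CTCF enrichments were 5.42 and 4.81, and H3K27ac enrichments were 27.7 and 49.7. At the site near NGFR, a neurotrophin receptor gene, the distance was 57 bp, CTCF enrichments were 5.06 and 5.92, and H3K27ac enrichments 34.2 and 41.2. The BLCAP site had 32 bp between centres, 5.23 and 8.27 for CTCF, and 32.4 and 38.7 for H3K27ac. These 3 had CTCF enrichments under the medians of all sites in both replicates, while their high H3K27ac is what they were chosen for.

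Base composition differed between the sets. Within 150 bp of the summit the GC content was 50.6% ± 10.8 (SD over 6291 sites) at the sites and 46.4% ± 9.50 (SD over 24198 peaks) in the comparison set, a difference of 4.17 points (3.87 to 4.46). There were 7.62 CpG dinucleotides per 301 bp at the sites and 4.60 in the comparison set. A window with a CpG observed-to-expected ratio of at least 0.6 and a GC content of at least 50%, as in CpG islands, was found at 12.4% of sites and 3.68% of the comparison set. Repeats took up less of the sites, with 14.2% of bases masked against 17.7%. The motif itself held a CpG at 45.6% of sites with a motif and 36.8% of comparison peaks with one. The letter that differed most was A at motif position 6, counted from the 5′ end of the consensus, found in 70.4% and 77.7%.

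The sites lay mostly in introns. Introns held 54.3% of summits (50.3% in the comparison set), exons without coding sequence at that position 6.02% (3.18%) and coding exons 2.58% (1.99%). Outside annotated genes lay 37.1% of the sites, against 42.5% of all shared distal CTCF peaks and 44.5% of the comparison set, a difference of -7.41 points (-8.75 to -6.05). The median distance to the nearest TSS was 22887 bp for the sites and 31322 bp for the comparison set. Among chromosomes, the share of shared distal CTCF peaks that were sites was highest on chromosome 12 at 26.2% (23.8 to 28.7) and lowest on X at 10.2% (8.47 to 12.2). These chromosomes held 5.21 and 0.826 sites per Mb, and 23.8 and 9.31 annotated genes per Mb.

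Most sites were alone in their acetylated region. Merging overlapping H3K27ac peaks of both replicates gave 5960 regions with a site, of which 5670 held 1, 259 held 2, 25 held 3, 5 held 4 and 1 held 8. In regions with exactly 2 sites that both had a motif, the motifs were on the same strand in 103 of 177 pairs (58.2%, 50.8 to 65.2), convergent in 38 and divergent in 36. The median distance between the 2 sites was 2228 bp, and pairs of one region share its H3K27ac peak.

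The region with 8 sites spanned 90009 bp, chr7:38995314-39085322, from C7H6orf223 towards TMEM63B. A motif was present at 8 of 8 sites, 7 of them on the minus strand. Its CTCF enrichments were between 4.89 and 24.98 in replicate 1 and between 4.201 and 37.0 in replicate 2. H3K4me3 of both replicates overlapped 1 of the 8, against 39.5% over all sites. In COL15A1, which encodes a basement membrane collagen, 4 intronic sites lay in an H3K27ac region of 34664 bp, with CTCF enrichments of 34.6, 10.8, 4.75 and 26.0 in replicate 1, 43.5, 11.3, 11.3 and 31.0 in replicate 2, and no site with H3K4me3 in both replicates. The 4 sites of the region at LMNA, the lamin A/C gene, had motifs on alternating strands, CTCF enrichments of 53.7, 16.3, 20.2 and 24.0 in replicate 1 and of 69.1, 21.5, 25.7 and 30.9 in replicate 2, and H3K4me3 at 4 of 4. BCAR1, the gene for the adaptor p130Cas of focal adhesions, and BCL6, a transcriptional repressor gene, also had regions with 4 sites and H3K4me3 at 4 of 4. These sites are not separate observations of H3K4me3. The 4 BCL6 sites shared a peak of 68.7 and 32.2, and the 4 BCAR1 sites shared a peak of 31.3 in replicate 2. All but the first LMNA site shared a peak of 67.9 and 32.1. Some CTCF peaks of replicate 2 were shared too. All but the first BCL6 site overlapped the same one of 47.7, and the middle COL15A1 sites the same one of 11.3. At COL15A1, H3K4me3 overlapped 1 site in replicate 1, at 3.53, and another in replicate 2, at 4.18. The regions with several sites thus differed in H3K4me3 shared by both replicates.

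Genes of fibroblast identity and signalling were counted from a fixed list. Of 46 genes, 44 were annotated by these symbols (CCN1 and CCN2 were not), and 36 had at least 1 site in the gene body or with its TSS as the nearest. Summed over genes there were 74 sites among 137 shared distal CTCF peaks (54.0%, against 19.5% over all). No test was made of this share, since the list holds genes known to be active in fibroblasts. The other 8 annotated genes (TAGLN, TWIST1, LUM, CAV1, LOX, ZEB1, MEIS2 and NFIB) had no site. Between 0 and 7 shared distal CTCF peaks were assigned to these, with the 7 at LOX, the gene of the collagen crosslinking enzyme lysyl oxidase, all in the comparison set.

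The matrix genes of the list held between 0 and 3 sites each. COL1A2, the alpha-2 chain of type I collagen, had 3 sites among 8 shared distal CTCF peaks. Their CTCF enrichments were 59.9, 20.5 and 43.1 in replicate 1 and 84.0, 39.5 and 43.4 in replicate 2. H3K27ac was 4.02, 30.4 and 3.21 in replicate 1 and 2.86, 29.2 and 3.96 in replicate 2, so that the site 92570 bp upstream of the TSS, the only one of the 3 without a motif, was the most acetylated. COL6A3, for a chain of type VI collagen, had 3 of 3. Its intronic site 3526 bp from the TSS had CTCF enrichments of 38.2 and 38.2 and H3K27ac of 24.96 and 27.7. FN1, for fibronectin, had 3 of 4 and FBN1, for fibrillin-1, 3 of 6, while COL1A1 had 1 of 1 and COL3A1 1 of 2.

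Among receptors, PDGFRA and PDGFRB, which bind platelet-derived growth factor and mark mesenchymal cells, had 3 sites of 3 and 3 of 4. The 2 PDGFRA sites in introns of the gene, 3087 and 4596 bp from its TSS, shared an H3K27ac peak of 36.3 and 30.7, carried motifs on opposite strands, and had CTCF enrichments of 17.3 and 23.8 in replicate 1 and overlapped the same peak of 28.4 in replicate 2. The third, 11485 bp upstream in an intron of LOC100739256, had a higher CTCF enrichment of 35.0 and 44.4 and a lower H3K27ac enrichment of 6.23 and 6.41. TGFBR2, a receptor of TGF-beta, had 2 of 4.

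Among transcription factors, HMGA2, a chromatin architectural factor of fetal mesenchyme, had 8 sites of 9 shared distal CTCF peaks, 6 of which lay between genes and 2 in introns. Their CTCF enrichments ranged from 4.89 to 39.3 in replicate 1 and from 7.51 to 47.2 in replicate 2. The site with the highest CTCF of these had H3K27ac enrichments of 2.68 and 3.48, and the most acetylated in replicate 2, at 18.5 and 20.9, had CTCF enrichments of 27.02 and 30.8. H3K27ac differed between replicates at the HMGA2 intron site farthest downstream, at 21.0 in replicate 1 and 4.01 in replicate 2. RUNX1, a factor of the Runt family, had 4 of 4, all intronic, with CTCF enrichments of 6.23, 14.2, 9.22 and 24.9 in replicate 1 and 7.68, 13.7, 14.5 and 38.5 in replicate 2. FOSL2, which encodes an AP-1 subunit, had 3 of 3 with H3K27ac between 28.3 and 46.2 in both replicates. The FOSL2 sites 2958 and 3217 bp from its TSS lay on opposite sides of it. They overlapped the same H3K27ac and H3K4me3 peaks, which thus spanned the TSS. TEAD1 had 3 of 6, PRRX1 3 of 4, NFIA 3 of 3 and TCF4 3 of 5.

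Across all genes, 3956 sites lay in the bodies of 2879 genes. Among the genes with the most sites were GSE1, a gene for a coiled-coil protein (9 of 17 shared distal CTCF peaks in its body), and LOC106509843, annotated as a long non-coding RNA (9 of 9). HDAC9, a class IIa histone deacetylase gene, had 8 of 18, MECOM, a zinc finger factor gene, 7 of 13, and TNS1, for the focal adhesion protein tensin, 7 of 8. These 5 are long genes, from 176 kb for LOC106509843 to 1028 kb for HDAC9. H3K4me3 of both replicates overlapped 5 of the 9 GSE1 sites and none of the 9 in LOC106509843. Over all sites this share was 39.5%, and over all shared distal CTCF peaks it was 12.2%. Sites of a gene were not all separate observations, as some in LOC106509843 shared an H3K27ac peak of 21.2 and 18.6.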

How the data were processed

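ChIP-seq of CTCF, H3K27ac and H3K4me3 was measured in PEFs, with 2 libraries each, grouped by their labels. Per the paper's methods, the authors mapped reads with bowtie2, kept uniquely mapped fragments with a mapping quality above 5, discarded duplicate fragments (Picard) and ran the narrow peak mode of MACS2 on each library with a control. The methods also describe peaks merged over replicates by an irreproducible discovery rate, which were not used here, while the deposited lists are 1 per library. Tool versions are not given in the sources used here. The deposited lists hold 40289 and 44682 CTCF, 74983 and 81164 H3K27ac, and 37932 and 43516 H3K4me3 peaks. Each deposited peak has a fold enrichment (a ratio over control), a −log10 p-value, a −log10 q-value and an integer score, of which the score and p-value were not used. The methods state a q-value of 0.01, but the lists reach 0.0432 to 0.0499, which adds weak peaks. They were used as deposited. Input libraries were not analysed here.

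Positions were read on Sscrofa11.1 with RefSeq annotation release 106 (28077 genes), 1-based. Sequences are from RefSeq. The sites, gene lists and words were chosen with earlier results of these data known. Overlaps (at least 1 bp) and TSS distances (from the peak edge) were computed with Python 3.11.15, numpy 2.4.6 and pandas 2.3.3. The motif was learned by expectation maximisation from 600 shared CTCF peaks within 2.5 kb of a TSS, and exact score p-values came from base composition. Class assignment, motif search and intervals were tested on simulated data. Shares have 95% Wilson and differences 95% Newcombe intervals, and that of GC content is a normal interval. These count sites, not cultures.

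Named sites were the 6 with the highest mean CTCF and the 6 with the highest mean H3K27ac enrichment, the regions with the most sites (5 at most), the list genes with at least 3 sites, the 6 genes with the most sites (1 of them is not reported here), and peaks next to thresholds. Other list genes, such as COL1A1, COL3A1 and TGFBR2, are given by count. Alternatives covered q-value, overlap, TSS distance and set, motif cutoff and model, window size, and leaving out each library.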

Additional observations from a re-analysis of the deposited data

How the results depend on the processing

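The differences recomputed under the alternatives were those in H3K4me3, motif, AP-1, GC content and intergenic share, and each kept its direction. The ratio of CTCF enrichments did not, as it was 0.942 when at least 50% of the CTCF peak had to be covered. Differences in the other words, CpG, repeats and introns were not recomputed under these alternatives. Of 91 recomputed shares, differences, ratios and distances, 55 stayed within the error of the value reported. The number of sites has no such error and ranged from 4388 to 7572 against 6291. At 50% coverage the share of sites was 13.6%, the differences were 46.2 points for H3K4me3, -6.79 for the motif, 5.03 for AP-1 and 5.20 for GC, the summit distance was 419 bp and the extent difference 198.5 bp. With a −log10 q-value of at least 5, the share was 16.6%, the distance 460.5 bp and the extent difference 410.5 bp. Beyond 5 kb from TSSs these were 18.8%, 420 bp and 383 bp, with 36.4 points for H3K4me3. Beyond 2.5 kb from every transcript TSS, an alternative chosen after seeing the data, the share was 18.6%, H3K4me3 35.8 points, GC 3.76 and the intergenic difference -5.22. With motif p under 1e-05, the motif difference was -6.20 and the extent difference 406 bp, and with a motif from odd-numbered autosomes scored on even-numbered ones the motif difference was -5.13. The AP-1 difference was 0.990 within 50 bp and 5.46 within 300 bp.

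Leaving out each library in turn gave 6479 to 7572 sites, a share of 19.2% to 22.9%, differences of 34.7 to 40.2 points for H3K4me3, -6.63 to -2.99 for the motif (the former without CTCF replicate 1), 3.45 to 5.18 for AP-1, 3.31 to 4.36 for GC and -7.76 to -7.20 for intergenic location, a CTCF ratio of 1.05 to 1.12, summit distances of 411 to 435.5 bp and extent differences of 338.5 to 401 bp. The cause of these shifts was not tested. No paired analysis was possible because the values come from no test between groups of libraries. Peak lists carry no read depth, so a missing peak may be a weak one.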
